A study of Homo sapiens with 6 samples.

Results

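The complement genes described here are C1R, C1S, C3, C4BPA, C5, C6, C9, CFB and CFI, 9 of the 19775 genes named on the array. They were chosen by gene symbol from the platform annotation, and every probe set annotated to a member symbol alone was taken, which gave 12 probe sets, 2 each for C1S, CFB and CFI and 1 for each of the other 6 genes. The cells were Hep3B, a human hepatocellular carcinoma line, stably carrying either the siSDHB plasmid, aimed at the succinate dehydrogenase gene SDHB (clone D20), or the plasmid pU6 (clone 2, pU6-2), and 3 arrays, A, B and C, were made of each clone. Cells of both clones grew in medium with 400 µg/ml G418 until nearly confluent. Each group was a single clone, so the silencing and the clone cannot be told apart. The labels leave unsaid whether arrays A, B and C stand for separate cultures, and the p-values therefore rest on array-to-array spread that may be technical. In bulk RNA, fewer cells of a type and less RNA per cell cannot be told apart. The level of SDHB was not analysed here.

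Complement is a set of blood proteins, made mainly by hepatocytes, that act in a chain of proteolytic cuts. C1r and C1s are the proteases of the classical pathway, factor B is the protease of the alternative pathway, and both pathways cut C3, the central component. The terminal components C5, C6, C7, C8 and C9 then assemble into a pore, while soluble regulators such as factor I and the C4b-binding protein, and proteins on the cell's own surface, hold the chain in check. Hepatoma lines are known to secrete many of these proteins, and cytokines of the acute phase response raise several of them.

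Arrays were measured as MAS5 signals, intensities on a linear scale whose trimmed mean was 500.1 on every array, and the median signal was 86.2 to 92.4 on D20 arrays and 77.7 to 84.1 on pU6-2 arrays. Across the tested probe sets, not independent of each other, Pearson's r of log2 signals was 0.953 to 0.962 among D20 arrays, 0.964 to 0.967 among pU6-2 arrays and 0.88 to 0.89 between clones. The ratio of 3' to 5' control signal was 1.11 to 1.25 in D20 and 1.08 to 1.15 in pU6-2 for GAPDH, and 1.4 to 1.68 in D20 and 1.42 to 1.9 in pU6-2 for ACTB. Of 8 hepatocyte markers 7 were named on the array and all 7 were tested, and 6 of them were lower in D20 with none higher, their summed signal being 87472.3 to 99538.6 in D20 and 196008.0 to 202954.0 in pU6-2. ALB did not pass the test by the probe set used for it (log2 fold change, D20 over pU6-2, 0.0049). Its other probe sets were called lower (-2.39), called higher (0.77) or not called (-0.17). The part of the hepatocyte markers in the complement results was not tested. Of the markers of other cells, 1 of 4 tested blood cell markers was lower (LYZ, the summed signal of the list being 256.7 to 376.1 in D20 and 3997.2 to 5282.4 in pU6-2), 2 of 6 fibroblast markers were lower (PDGFRA and LUM, 758.7 to 1034.0 in D20, 1195.6 to 1396.2 in pU6-2), the single tested endothelial marker was higher (255.8 to 341.9 in D20, 112.1 to 176.7 in pU6-2) and 2 of 4 biliary markers were higher and 1 lower (20918.8 to 23576.3 in D20, 19526.9 to 20385.8 in pU6-2). LYZ and LUM had D20 means below the filter at 43.2 and were tested only through pU6-2, where LYZ made up most of the blood cell sum. PDGFRA was lower by the probe set used for it (log2 fold change, D20 over pU6-2, -0.58). Its other tested probe set was called higher (2.0, limma, Benjamini-Hochberg adjusted p = 0.0052), so its direction depends on the probe set. KRT7, not called by the probe set used (-0.28), was called higher by another (1.25). PTPRC, CD163, AIF1, COL3A1, CDH5, VWF, KDR, TEK and CFTR were too dim to be tested. Over all 13781 genes tested, 23.6% were called higher and 20.7% lower in D20. The marker counts were not tested against these shares.

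Windows around the transcription start of 7 of the 9 genes were found in RefSeq (build GRCh38.p14), each holding 250 bases before the start and 50 from the start on, 10 windows in all because C1R, C5 and C6 have 2 starts each. Windows of 4 genes that changed between the clones are shown, those of 2 genes lower in D20 first and those of 2 genes higher in D20 after them, because they hold the motif matches that the genes have in common. All are written 5' to 3' on the strand of the gene, and capitals mark every match to a searched motif on either strand. The windows lie at chr1:207103983-207104282 (plus strand, C4BPA), chr6:31945845-31946144 (plus strand, CFB), chr5:41261420-41261719 (minus strand, the first of the C6 windows) and chr12:7091844-7092143 (minus strand, the second of the C1R windows).
C4BPA: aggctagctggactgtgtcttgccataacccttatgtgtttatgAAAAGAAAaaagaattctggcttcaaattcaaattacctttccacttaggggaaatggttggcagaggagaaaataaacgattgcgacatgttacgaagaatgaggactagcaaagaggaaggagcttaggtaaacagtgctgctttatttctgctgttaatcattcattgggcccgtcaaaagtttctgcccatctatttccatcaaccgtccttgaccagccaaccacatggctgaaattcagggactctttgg
CFB: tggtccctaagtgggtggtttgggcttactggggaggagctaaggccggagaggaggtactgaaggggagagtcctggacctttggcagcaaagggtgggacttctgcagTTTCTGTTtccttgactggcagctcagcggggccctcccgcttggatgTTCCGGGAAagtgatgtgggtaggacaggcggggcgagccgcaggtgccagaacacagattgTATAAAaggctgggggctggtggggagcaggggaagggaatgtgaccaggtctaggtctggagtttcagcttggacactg
C6: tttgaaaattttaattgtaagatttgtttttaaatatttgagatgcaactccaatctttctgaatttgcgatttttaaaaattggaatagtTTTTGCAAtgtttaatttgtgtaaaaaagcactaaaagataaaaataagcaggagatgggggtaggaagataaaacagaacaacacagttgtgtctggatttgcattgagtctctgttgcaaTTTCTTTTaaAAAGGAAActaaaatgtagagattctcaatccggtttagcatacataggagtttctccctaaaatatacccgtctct
C1R: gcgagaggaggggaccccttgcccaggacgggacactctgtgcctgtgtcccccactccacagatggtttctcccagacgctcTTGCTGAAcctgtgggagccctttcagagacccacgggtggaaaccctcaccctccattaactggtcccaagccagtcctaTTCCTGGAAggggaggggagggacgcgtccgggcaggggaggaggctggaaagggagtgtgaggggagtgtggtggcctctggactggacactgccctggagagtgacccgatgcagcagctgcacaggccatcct

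The motifs searched were TATAAA (bound by TBP), TTCNNNGAA (bound by STAT factors), AANNGAAA (core of interferon-response elements), TTNNGCAA (C/EBP) and GGGANTTNC (core of an NF-kB site), on both strands. The C/EBP motif stood in both windows of C6 and both of C1R, so that the 4 of 10 windows come from 2 genes. Its share was 10.5% of all 34796 RefSeq windows and 20.8% of the 48 windows of other complement genes. Whether any motif bears on the change between the clones was not tested. CFB had the only TBP motif among the 10 windows, from -30 to -25 counted from the start (11.6% of all windows and 6.25% of those of the other complement genes), and a STAT match from -92 to -84, a motif also found in the second C1R window from -86 to -78. The STAT motif stood in 2 of the 10 windows, against 7.67% of all windows and 27.1% of those of the other complement genes. The interferon-response core stood in 6 of the 10 windows, those of C4BPA, C9, CFB and CFI and both of C6. Its share was 22.9% of all windows and 16.7% of those of the other complement genes. This core is rich in A, and the GC content was 30.3% and 37.7% in the C6 windows, 39.3% in CFI and 42.3% in C4BPA. It was 49.7% in C9 and 59.0% in CFB, against a median of 58.7% over all windows. The part of base composition in the count was not tested. The NF-kB core stood in none of the 10, against 4.55% of all windows and 4.17% of those of the other complement genes. Matches between motifs overlap in none of the windows shown, the motifs are short, and a match describes letters and not a bound site.

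Of the 12 probe sets 10, of 8 genes, passed the filter on dim signals and were tested between the clones. In D20 the 4 probe sets of C1R, C1S and C6 were higher, the 3 of C4BPA, C5 and CFB were lower, and the 3 of C3 and CFI did not pass the test (limma, Benjamini-Hochberg adjusted p under 0.05). The 7 called of 10 stand against 36.5% of all 32768 probe sets tested, 19.5% being higher and 17.0% lower in D20. Higher calls were 53.5% of all calls in this scaling, 40.9% after median centring and 73.1% after scaling on spike-in controls. The 3 arrays of D20 lay apart from the 3 of pU6-2 for the same 7 probe sets, against 47.2% of all probe sets. The median log2 fold change of the 10, D20 over pU6-2, was 0.15 against 0.03 over all probe sets, and the median absolute change 1.04 against 0.44. The genes were chosen with earlier results of these data known, so the distance from all probe sets describes them and tests nothing.

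**Figure D1:**
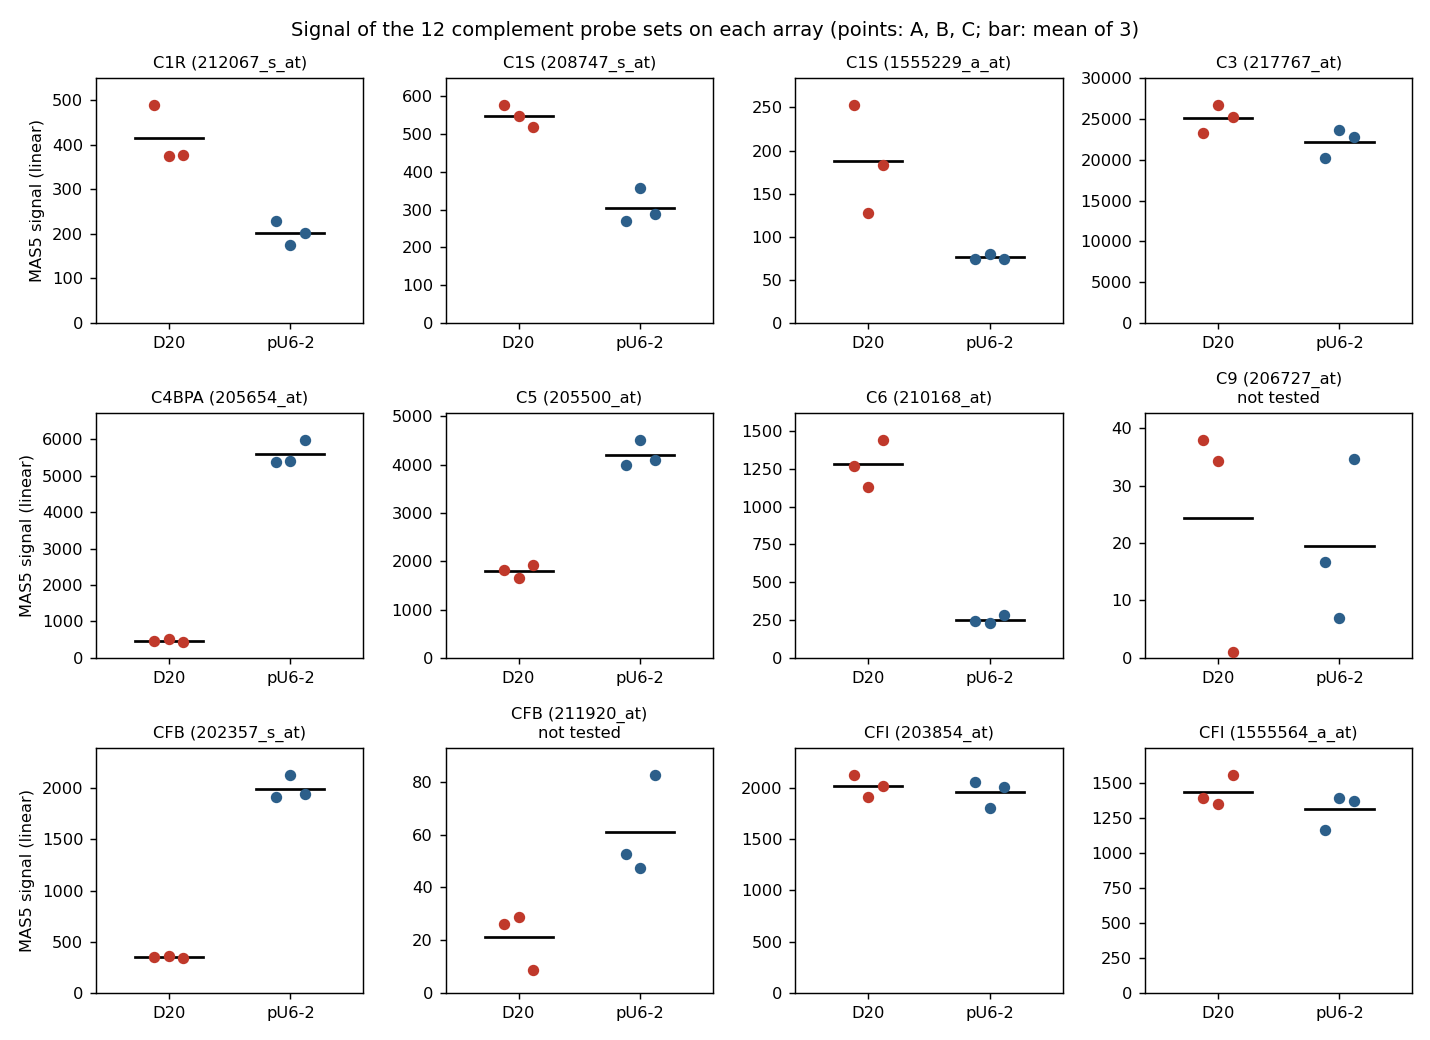
MAS5 signal on a linear axis from 0 for each of the 12 complement probe sets, with the 3 D20 arrays left and the 3 pU6-2 arrays right (points: arrays A, B and C; bar: mean of 3). The D20 points of C4BPA, C5 and CFB (202357_s_at) lie below all pU6-2 points, those of C1R, C1S and C6 above them, and those of C3, CFI and C9 overlap them.

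C1r and C1s, which sit together in the C1 complex, were both higher in D20. C1R (212067_s_at) had signals of 490.4, 375.2 and 377.9 on D20 arrays, against 228.0, 175.4 and 203.1 on pU6-2 arrays. The groups did not overlap, D20 array A being the highest, and the log2 fold change was 0.98 ± 0.21 (SE, n = 3 each; limma, Benjamini-Hochberg adjusted p = 0.0022), a mean signal 2.05 times that of pU6-2. C1S (208747_s_at) had 578.3, 547.8 and 518.5 in D20, against 271.2, 356.2 and 288.4 in pU6-2. Again every D20 array was above every pU6-2 array, with a log2 fold change of 0.82 ± 0.17 (SE, n = 3 each; limma, Benjamini-Hochberg adjusted p = 0.0021). The dimmer C1S probe set, 1555229_a_at, had 253.2, 127.6 and 183.3 in D20, against 74.5, 79.8 and 73.7 in pU6-2. Its D20 arrays spread more widely (SD 62.9, against 3.32 in pU6-2), and its log2 fold change was 1.10 ± 0.33 (SE, n = 3 each; limma, Benjamini-Hochberg adjusted p = 0.018). The log2 distance between both C1S probe sets, brighter minus dimmer, was 1.51 ± 0.42 (SD, n = 3) in D20 and 1.80 ± 0.15 (SD, n = 3) in pU6-2, a difference of -0.28 (two-sided exact permutation test, p = 0.4, where 0.1 is the smallest p possible). The rise of 1555229_a_at did not pass the test without D20 array A (log2 fold change 0.88, adjusted p = 0.09) or with no filter (adjusted p = 0.051), by limma with Benjamini-Hochberg adjustment, its adjusted p being between 0.0062 and 0.09 over 14 alternatives. C1R and the brighter C1S probe set carry the suffix _s_, which marks probe sets that can match several transcripts.

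C3, whose cleavage all pathways share, was at high signal in both clones. C3 (217767_at) had 23370.9, 26790.3 and 25297.2 in D20, against 20280.4, 23687.2 and 22796.3 in pU6-2. The groups overlapped, since D20 array A lay below pU6-2 array B, and the log2 fold change was 0.18 with a 95% interval from -0.0048 to 0.36 (limma, Benjamini-Hochberg adjusted p = 0.12). It passed the test in 4 of 15 alternatives, with quantile normalization (adjusted p = 0.043), spike-in scaling (0.011), the array letter as a block (0.049) and without D20 array A (0.031), the adjusted p lying between 0.011 and 0.72 over all 15 (limma, Benjamini-Hochberg).

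CFB encodes factor B, which binds C3b and, once cut, becomes the protease of the alternative pathway's C3 convertase. CFB (202357_s_at) had signals of 354.9, 356.6 and 344.0 in D20, against 1917.9, 2132.4 and 1938.6 in pU6-2. The arrays of D20 lay close together and far below pU6-2, their mean being 17.6% of the pU6-2 mean, and the log2 fold change was -2.45 ± 0.12 (SE, n = 3 each; limma, Benjamini-Hochberg adjusted p = 9e-09). The other CFB probe set, 211920_at, was too dim to be tested, with 26.3, 28.6 and 8.6 in D20 and 52.8, 47.5 and 82.8 in pU6-2. These signals are too dim to compare between the clones. Probe set 202357_s_at also carries the suffix _s_, so part of its signal could come from another transcript.

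Among the terminal components C5 fell and C6 rose in D20. C5, whose larger fragment starts the pore and whose smaller one, C5a, attracts leukocytes, had 1812.2, 1657.1 and 1915.8 in D20 (205500_at), against 3992.1, 4516.7 and 4090.2 in pU6-2. All D20 arrays were lower, at 42.7% of the pU6-2 mean, with a log2 fold change of -1.22 ± 0.10 (SE, n = 3 each; limma, Benjamini-Hochberg adjusted p = 6.4e-07). C6, which binds C5b as the first step of pore assembly, had 1268.6, 1126.9 and 1443.3 in D20 (210168_at), against 244.2, 229.4 and 280.7 in pU6-2. All D20 arrays were higher, by 5.09 times in the mean, with a log2 fold change of 2.27 ± 0.15 (SE, n = 3 each; limma, Benjamini-Hochberg adjusted p = 1.7e-07). Of all tested probe sets 98.1% had a lower log2 fold change than C6. C9, which polymerises to form the pore wall, was dim on all arrays (206727_at), with 38.0, 34.3 and 1.0 in D20 and 16.7, 6.9 and 34.6 in pU6-2. Its groups overlapped, and its mean lay below the filter, so that it was not tested.

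The soluble regulators went apart: C4BPA fell more than any other member and CFI did not pass the test. C4BPA, the alpha chain of C4b-binding protein, which holds C4b and lets factor I cut it, had 457.8, 531.8 and 438.2 in D20 (205654_at), against 5365.0, 5391.7 and 5985.8 in pU6-2. The D20 mean was 8.53% of the pU6-2 mean, with no overlap, and the log2 fold change was -3.51 ± 0.11 (SE, n = 3 each; limma, Benjamini-Hochberg adjusted p = 2e-10). Only 0.189% of tested probe sets had a lower log2 fold change. CFI, factor I, the protease that inactivates C3b and C4b, had 2130.3, 1910.5 and 2014.0 in D20 (203854_at), against 2056.9, 1800.3 and 2013.0 in pU6-2. The groups overlapped, and the log2 fold change was 0.05 with a 95% interval from -0.17 to 0.26 (limma, Benjamini-Hochberg adjusted p = 0.77). The other CFI probe set, 1555564_a_at, had 1396.4, 1349.1 and 1562.4 in D20, against 1167.1, 1397.0 and 1374.2 in pU6-2, a log2 fold change of 0.13 with a 95% interval from -0.12 to 0.38 (limma, Benjamini-Hochberg adjusted p = 0.42). Its groups overlapped too, and the log2 distance between both CFI probe sets differed between the clones by -0.08 (two-sided exact permutation test, p = 0.7).

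**Figure D2:**
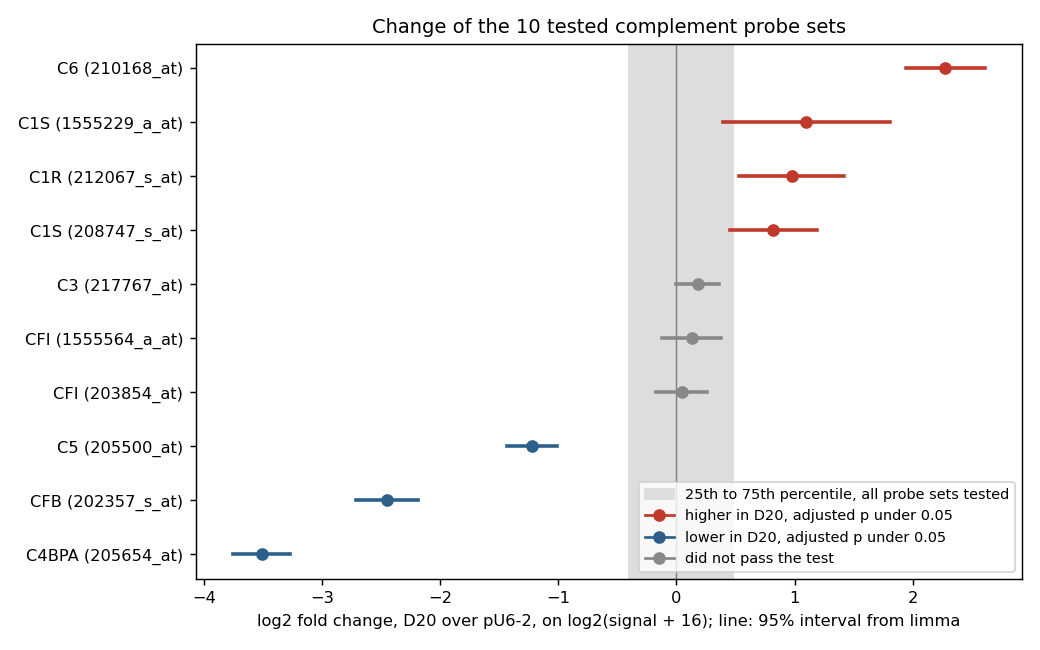
Log2 fold change, D20 over pU6-2, of the 10 tested complement probe sets (points) with 95% intervals from limma (lines), red where higher in D20, blue where lower and grey where the test was not passed; the grey band spans the 25th to the 75th percentile of all probe sets tested, -0.40 to 0.48. The intervals of C4BPA, CFB, C5, C6 and C1R lie wholly outside the band, and those of C3 and both CFI probe sets wholly inside it.

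The rest of the complement system was read from 4 lists by role, 53 genes other than the 9, 46 of them with a probe set of a single symbol and 24 tested. Of the 24 genes, each by its brightest tested probe set, 5 were higher and 13 lower in D20 and 6 did not pass the test (limma, Benjamini-Hochberg), so that 18 of 24 were called, against 44.3% of all 13781 genes tested (23.6% higher and 20.7% lower). Their median log2 fold change was -0.72. The lists too were chosen with earlier results of these data known, so the share called is a description and not a test. Without probe sets marked _x_ or _s_, which can match several transcripts, 15 genes could be tested, of which 4 were higher and 7 lower. The other 7 listed genes were not analysed here.

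Recognition molecules and activating proteases were lower for 3 and higher for 1 of 8 tested genes, with a median log2 fold change of -0.55. The other 8 of the 16 on the array fell below the filter on the mean over all arrays. Among them was MBL2 (207256_at), with 4.2, 3.0 and 1.7 in D20 and 161.0, 136.9 and 141.7 in pU6-2. MBL2 was not tested, fell outside the rule for named genes and is given after its values were seen. C2, the classical pathway protease related to factor B, had 345.1, 639.6 and 464.3 in D20 (203052_at), against 1875.3, 2194.1 and 1545.5 in pU6-2. Its log2 fold change of -1.95 ± 0.20 (SE, n = 3 each; limma, Benjamini-Hochberg adjusted p = 6.1e-06) was shared by its dimmer probe set 1554533_at (-1.35). MASP1, a protease of the lectin pathway, fell (-1.42 by 232224_at), as did 1 of its 4 other tested probe sets, 210680_s_at (-0.89). COLEC12, a scavenger receptor with a collectin domain, rose (0.83). C1RL, a C1r-like protease, was at -0.41 (limma, Benjamini-Hochberg adjusted p = 0.017), a call lost in 5 of 17 alternatives (adjusted p between 0.0028 and 0.32), among them the mean of its 2 probe sets (-0.24) and leaving out D20 array C (-0.37) or pU6-2 array A (-0.38).

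The 3 tested chains of C8, the component that anchors the growing pore in the membrane, moved in different directions. C8B, the beta chain, had 1170.3, 1245.4 and 1043.0 in D20, against 267.5, 307.5 and 361.0 in pU6-2, and rose by a log2 fold change of 1.84 ± 0.15 (SE, n = 3 each; limma, Benjamini-Hochberg adjusted p = 1.1e-06). C8G, the gamma chain, had 283.2, 249.8 and 134.4 in D20, against 428.8, 641.0 and 577.0 in pU6-2, a log2 fold change of -1.29 ± 0.26 (SE, n = 3 each; limma, Benjamini-Hochberg adjusted p = 0.0017). C8A, the alpha chain, was dim, with 129.9, 71.0 and 142.3 in D20 and 195.6, 237.4 and 252.5 in pU6-2, the log2 fold change being -0.95 (limma, Benjamini-Hochberg adjusted p = 0.025). The C8A call was lost in 5 of 16 alternatives, 3 of which left out D20 array B (-0.68), pU6-2 array B (-0.92) or pU6-2 array C (-0.88), with adjusted p between 0.012 and 0.093 over all 16. C7 was too dim to be tested.

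All 7 tested soluble regulators outside the 9 genes passed the test, 6 lower and 1 higher in D20, with a median log2 fold change of -1.53. C4BPB, the beta chain of the C4b-binding protein, had 124.0, 253.1 and 194.6 in D20, against 2597.0, 2791.7 and 2796.7 in pU6-2. Its D20 mean was 6.98% of the pU6-2 mean, beside the 8.53% of C4BPA, and its log2 fold change -3.78 ± 0.20 (SE, n = 3 each; limma, Benjamini-Hochberg adjusted p = 1.8e-08). CPN1 (-2.04), the catalytic subunit of carboxypeptidase N, which inactivates C3a and C5a, fell, as did CLU (-1.53), clusterin, which binds the forming pore. CPN2, the carrier subunit, had 51.4, 20.3 and 20.4 in D20, against 210.7, 472.1 and 365.0 in pU6-2. Its D20 mean of 30.7 lies below the filter at 43.2, so that it was tested only through its pU6-2 signal, and the size of its log2 fold change (-2.96, and -3.53 to -2.09 over 16 alternatives) depends on the pseudocount. The single rise was that of SERPING1, the C1 inhibitor, which blocks C1r and C1s, with 731.1, 902.7 and 643.0 in D20 and 439.4, 565.0 and 362.2 in pU6-2, a log2 fold change of 0.73 ± 0.19 (SE, n = 3 each; limma, Benjamini-Hochberg adjusted p = 0.0079). SERPING1 fell outside the rule for named genes and is given because it was the only rise in its list, after its values were seen.

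On the cell surface 2 of 6 tested regulators and receptors were higher and 2 lower in D20, and 12 of the 18 on the array, among them CR1, CR2, C3AR1, C5AR1 and VSIG4, were too dim to be tested. SUSD4, a membrane protein known to inhibit complement, had 3003.6, 2667.7 and 2690.7 in D20, against 99.9, 68.6 and 85.1 in pU6-2, a log2 fold change of 4.81 ± 0.16 (SE, n = 3 each; limma, Benjamini-Hochberg adjusted p = 4.2e-10), with 4.01 and 3.51 by its other probe sets. CD59, which blocks the insertion of C9, had 8125.1, 8450.6 and 8905.2 in D20, against 3920.9, 4208.0 and 4455.7 in pU6-2, a log2 fold change of 1.02 ± 0.08 (SE, n = 3 each; limma, Benjamini-Hochberg adjusted p = 9.2e-07). Its 4 other probe sets were at 0.96 to 1.04. CD46, a cofactor for factor I, fell (-0.59), and so did C1QBP (-0.76), a mitochondrial and surface protein that binds C1q. CD55, which takes convertases apart, did not pass the test by its brightest probe set (-0.36, limma, Benjamini-Hochberg adjusted p = 0.056), while its probe set 201926_s_at did (-0.65) and 201925_s_at was at 0.05.

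**Figure D3:**
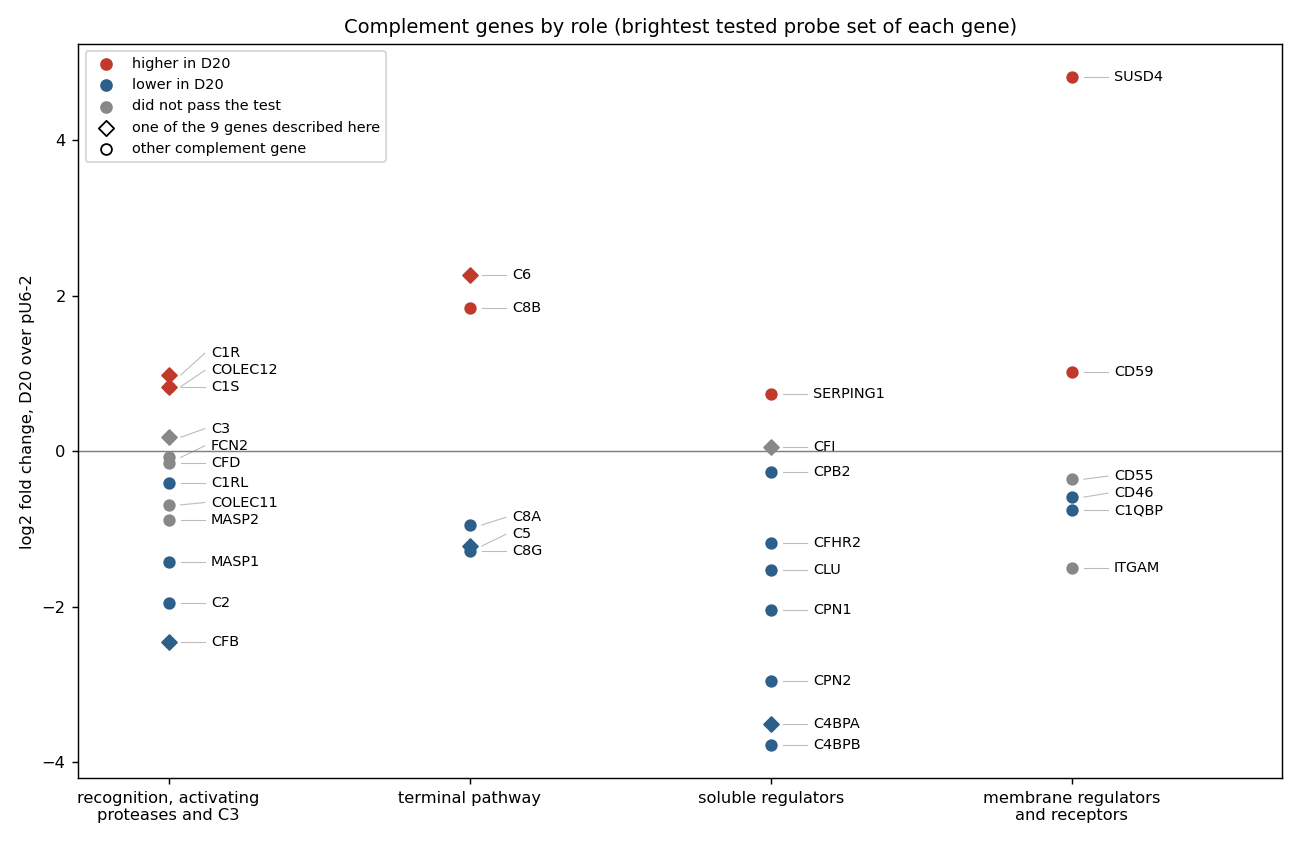
Log2 fold change, D20 over pU6-2, of each tested complement gene by role, the 9 genes described here as diamonds (C9 was not tested) and other complement genes as circles, red where higher in D20, blue where lower and grey where the test was not passed. C4BPA and C4BPB lie together at the lower end of the soluble regulators, C6 and C8B together at the upper end of the terminal pathway, and SUSD4 at 4.81 stands highest.

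Several of these genes are neighbours in the genome, and the gene order of the RefSeq table was used to set each beside the 5 tested genes on either side. Over all 13781 genes tested, 23.6% were called higher and 20.7% lower in D20, and the counts of neighbours were not tested against these shares. C4BPA and C4BPB adjoin on chromosome 1, and of the 10 neighbours of C4BPA 5 fell and 2 rose, the median log2 fold change being -0.48 and C4BPB the lowest, while CD55 and CD46 on the other side were at -0.36 and -0.59. CFB and C2 adjoin on chromosome 6, where of 10 neighbours 4 fell and 1 rose with a median of -0.53, C2 being the lowest. C1R and C1S adjoin on chromosome 12 and both rose. Of the 10 neighbours of C1R, C1S included, 6 fell and C1S alone rose, the median being -0.35, and C1RL on the far side of C1R was at -0.41. C6 on chromosome 5 lay among 5 genes that rose and 2 that fell (median 0.51), and C5 on chromosome 9 among 3 that rose and 2 that fell (median -0.27). CFI on chromosome 4, itself at 0.05, had 3 neighbours higher and 4 lower, with log2 fold changes from -3.30 to 3.07.

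**Figure D4:**
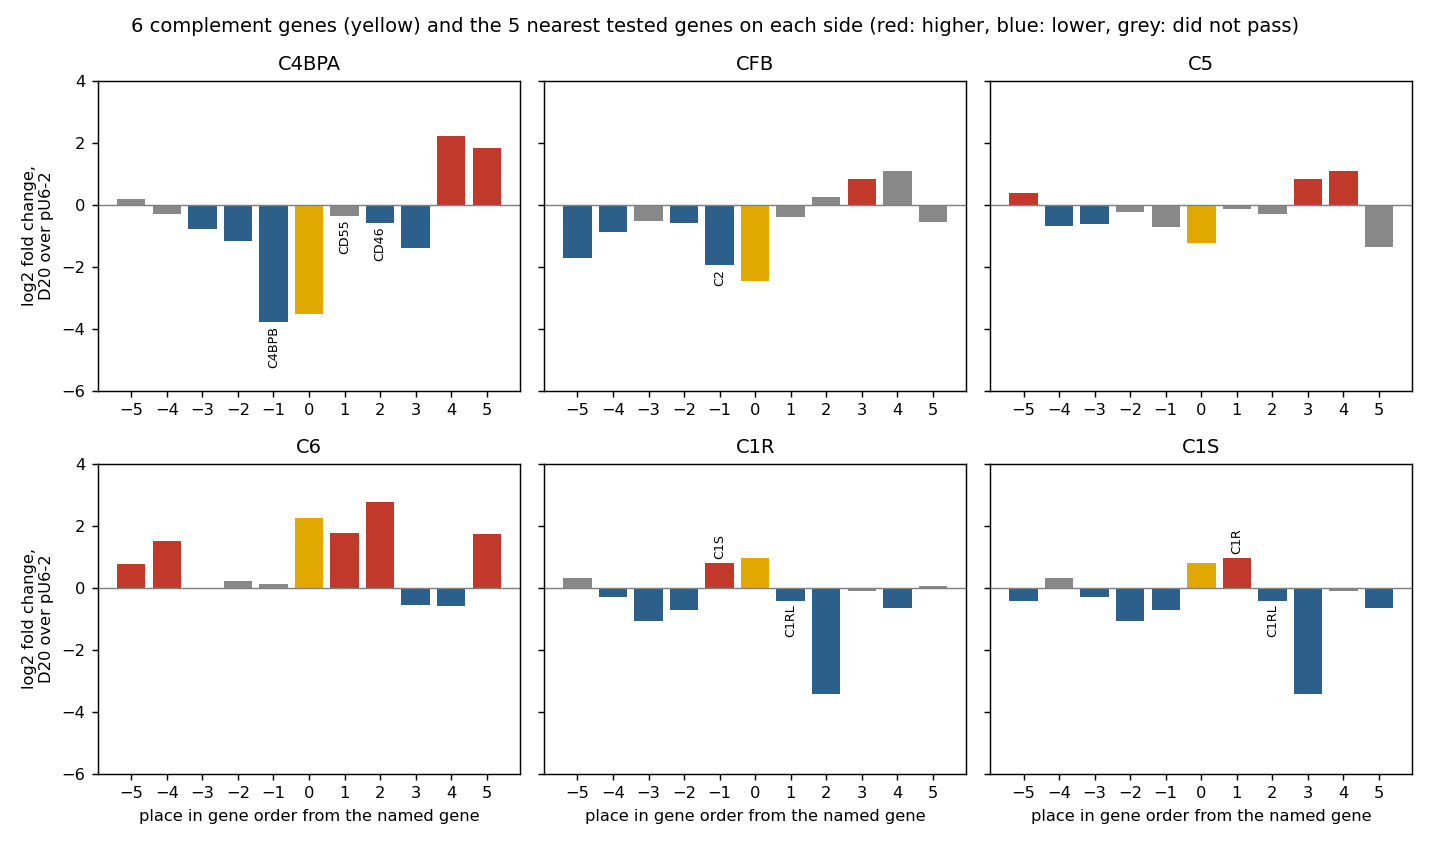
Log2 fold change, D20 over pU6-2, of 6 complement genes (yellow, place 0) and of the 5 nearest tested genes on each side in gene order, red where higher in D20, blue where lower and grey where the test was not passed. C4BPB beside C4BPA and C2 beside CFB are the lowest of their neighbours, and C1R and C1S are higher beside each other.

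Genes through which cytokines and liver factors act on complement transcription were read from a further list of 22, of which 18 were tested, 6 being higher and 6 lower in D20 (median log2 fold change -0.05), against 23.6% higher and 20.7% lower of all genes tested. CEBPD, a C/EBP factor of the acute phase response, had 1392.3, 1473.3 and 1414.3 in D20, against 714.2, 768.8 and 728.4 in pU6-2, a log2 fold change of 0.94 ± 0.11 (SE, n = 3 each; limma, Benjamini-Hochberg adjusted p = 2.4e-05). Lower in D20 were IL6R (-1.05), the receptor that binds interleukin-6, FOXA2 (-0.99), a hepatocyte factor, and RELA (-0.89), a subunit of NF-kB. Other genes of the interleukin-6 route, IL6ST (0.42), JAK1 (0.62) and STAT3 (0.62), rose, while JAK2 (-0.56) and SOCS3 (-1.2) did not pass the test. Of the other C/EBP factors, CEBPB (0.28) rose and CEBPA (-0.22) did not pass the test. The genes from IL6ST to CEBPA fell outside the rule for named genes and are given after their values were seen. The 4 listed genes beyond the 18 tested were not analysed here.

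For C4BPA and C6, the members with the lowest and the highest log2 fold change, the genes most alike were sought among called genes whose log2 fold change lay within 0.5 of theirs. Over the 6 arrays C4BPA had its highest Pearson's r with ADH6 (0.998), THBS4 (0.998) and TMT1A (0.996), out of 39 genes, and C6 with CREB5 (0.999), WWTR1 (0.999) and GJC1 (0.998), out of 410. These values describe profiles set mainly by the step between both clones and the arrays they share.

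**Figure D5:**
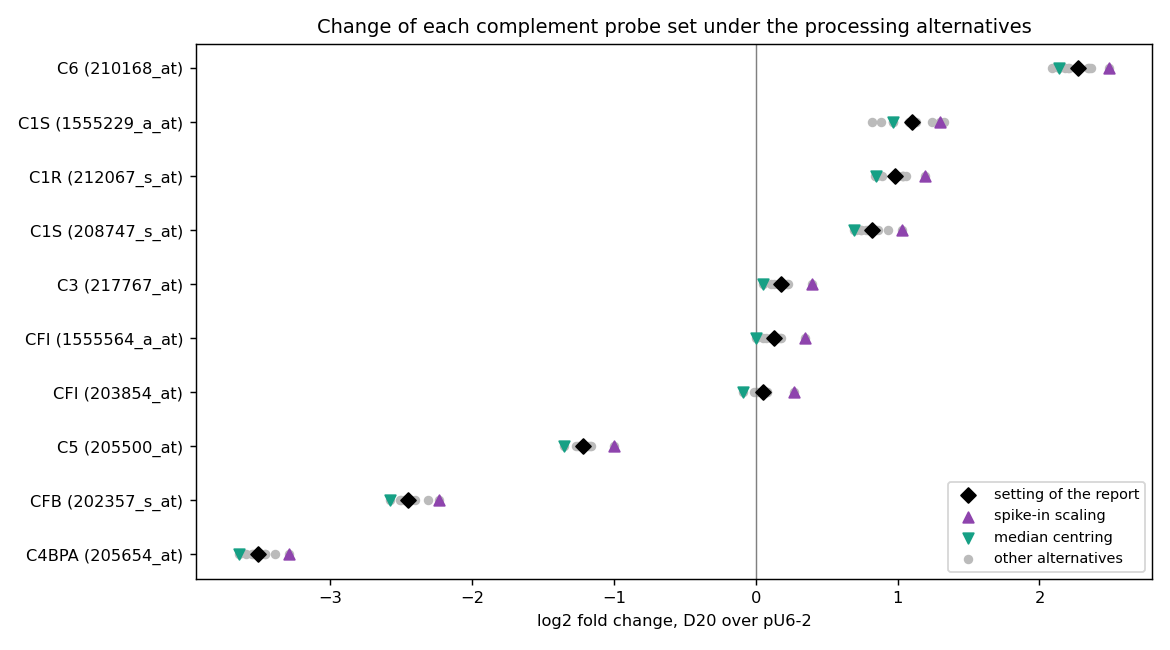
Log2 fold change, D20 over pU6-2, of each tested complement probe set in the setting of the report (black diamond), with scaling on spike-in controls (purple), with median centring (green) and under the other alternatives (grey). C4BPA ranges from -3.64 to -3.29 and C6 from 2.09 to 2.49, while the CFI probe sets cross 0 with median centring.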

How the data were processed

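RNA of clones D20 and pU6-2 (3 arrays each) was read on Affymetrix HG-U133 Plus 2.0 arrays from 5 µg total RNA, per the labels' protocols. Each deposited value is the intensity of a probe set on an array, computed with MAS5 per the submitters' processing notes; the MAS5 version and target were not given in the sources used. Names came from the platform annotation in GEO, 54675 probe sets in all, 41091 having 1 symbol, 1801 several and 11721 none, and 41037 were updated to RefSeq symbols (GRCh38.p14) by Entrez identifier. Signals were taken as log2(signal + 16), which understates the change of dim genes. The 62 control probe sets and the dimmest 40% of the others by mean over all arrays (below 43.2) were left out, leaving 32768. Clones were compared by limma 3.58.1 in R 4.3.3 (variance trend, two-sided, Benjamini-Hochberg over all probe sets tested, threshold 0.05, no covariate), tested on simulated data. Differences between probe sets of 1 gene had a two-sided exact permutation test. For each gene the brightest tested probe set was used, those without _x_ first. Named are all members, up to 4 called genes of each list with the largest change, neighbours that are in a list, and the 3 genes most like C4BPA and C6. The members and lists were chosen with earlier results of these data known. Some items are not reported here. Only 6 arrays limit the precision. Alternatives were pseudocounts of 1 and 64, other filters, other scalings, no variance trend, a replicate block, other probe sets and leaving out each array.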

Additional observations from a re-analysis of the deposited data

How the results depend on the processing

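The 7 calls among the complement probe sets numbered 6 to 8 in the 15 alternatives, and C1R, the brighter C1S probe set, C4BPA, C5, C6 and CFB kept their direction and passed the test in each (limma, Benjamini-Hochberg). Leaving out 1 array at a time left 7 calls each time, while over all probe sets the 11952 calls became 9710 to 11315 and the members' median log2 fold change lay between 0.10 and 0.20. Median centring gave a median of all probe sets of -0.10 in place of 0.03 and a share of calls that were higher of 40.9% in place of 53.5%, and spike-in scaling gave 0.23 and 73.1%. With them the median of the 10 complement probe sets was 0.02 and 0.37. CFI turned to -0.09 (203854_at) and -0.00087 (1555564_a_at) with median centring and lay between -0.01 (203854_at, without pU6-2 array B) and 0.08 for that probe set when 1 array was left out, and did not pass the test in any alternative. Of the 24 further complement genes 18 were called, against 11 of 15 without probe sets marked _x_ or _s_, where fewer genes could be tested, 17 of 46 with no filter, 17 of 18 with the dimmest 60% left out, and 14 to 19 of 24 in the other alternatives. The share of all probe sets called moved with the filter as well, being 20.2% with no filter and 49.4% with the dimmest 60% left out, in place of 36.5%. With the array letter as a replicate block 8 complement probe sets, 17 further complement genes and 12557 probe sets in all were called. Same-letter arrays did not deviate together over all tested probe sets (r = -0.021, 0.052 and 0.007, against -0.059 to 0.052 for other letters). This cannot tell whether same-letter arrays were handled together, which the labels leave unsaid. Signals near the filter, such as those of C9 and CFB 211920_at, are too dim to compare.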
